A study of Homo sapiens with 17 samples.

Results

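Control immunoglobulin G (IgG) pull-downs from WT HEK293T, a line derived from human embryonic kidney, were compared with the poly(A) RNA that went into them. The comparison holds 5 of the 17 libraries of an acRIP-seq series, namely WT input replicates 1 to 3 and WT IgG replicates 1 and 2, and they were chosen by their labels alone. In acRIP-seq, RNA carrying N4-acetylcytidine (ac4C) is collected with an anti-ac4C antibody (IP). In the IgG arm a rabbit immunoglobulin with no ac4C specificity took the place of that antibody on the same protein A beads, and the input had no antibody. The labels name no siRNA for WT. The siTDP43 cells, used here for contrast, were the same line treated with siRNA against TARDBP, which encodes the RNA-binding protein TDP43, and had 3 input and 3 IgG libraries. All these libraries were prepared from poly(A) RNA by Smart-seq2, which starts reverse transcription from oligo(dT).

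A pull-down with an unspecific immunoglobulin is the usual measure of background in an immunoprecipitation. RNA can stay with beads, with immunoglobulin or with tube walls whatever it carries, and with little RNA left, the library holds whichever molecules came through. Which transcripts these are decides which ones an enrichment over IgG can call. The question here was which transcript classes were retained and which were lost when no ac4C antibody was present.

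Total counts were 27718784 to 36583436 in WT input, 9466855 in WT IgG replicate 1 and 9022250 in replicate 2. A rank correlation of 0.948 across genes linked the IgG libraries, below the 0.986 to 0.987 between inputs. The study's methods say that RNA eluted from the pull-downs was too dilute to quantify. They describe the pull-downs of a group as duplicates or triplicates and do not say whether these came from separate cultures, so p-values measure only the spread between these libraries. The methods also describe an acetylated β-globin spike-in, which was not used for scaling here, so all values are shares of a library and carry no amount of RNA. Of the HEK293T markers, 11 were tested, and 5 were higher and 4 lower in IgG by the test given below. Their summed level was 1468 to 1515 CPM in input and 2040 to 2053 in IgG (CPM, counts per 1000000 after TMM normalization), with EYA1 at 0 CPM in both IgG libraries. Of 10 blood cell markers 2 could be tested and 1 was higher, while PTPRC and HBB did not pass the filter on low counts. The summed level of these 2 was 6.41 to 7.44 CPM in input and 39.0 to 48.7 in IgG. Of 10 fibroblast, endothelial and liver markers 5 were tested, with 2 higher and 3 lower.

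WT IgG held 3594 transcripts above and 5400 below their level in WT input, among 14751 tested (edgeR quasi-likelihood test, adjusted p under 0.05 and a fold above 2). These are 24.4% and 36.6% of the genes, the background for every count below. In 36.8% of genes both IgG libraries were above all inputs and in 50.9% both were below. Both IgG libraries held at most 3 counts, taken as the floor, for 1964 of the lower genes (36.4%), while all inputs were at the floor for 118 of the higher genes. Among the 10857 genes with an input mean of at least 100 counts, 2586 were higher and 3719 lower. This filter looks at input alone and so favours lower calls, and it cannot show whether their excess depends on depth. Once genes at the floor in input or IgG were left out, 3476 were higher and 3436 lower. Their median log2 difference was -0.012, so the excess of lower calls rested on genes at the floor. The median log2 difference was -0.39 in all genes and -0.25 with floor genes set to their bound.

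The transcript that took the largest share of the IgG counts was PTMA (prothymosin alpha, a small and very acidic nuclear protein; hg19 chromosome 2, 232573235 to 232578250). It had 1931, 2261 and 2192 CPM in the inputs and 10660 and 12721 CPM in IgG, so the groups were far apart. The log2 difference was 2.46 (SE 0.075, adjusted p 4.66e-19 by edgeR's quasi-likelihood test), or 5.49-fold. PTMA exons overlap those listed for the MIR1244 copies and the gene has processed pseudogenes, so its counts depend on how such reads were assigned. UPF3B, which joins the exon junction complex to the nonsense-mediated decay machinery (chromosome X, 118967989 to 118986991), had 66.2, 59.6 and 62.6 CPM in input and 469 and 519 CPM in IgG. Its log2 difference was 2.98 (SE 0.067, adjusted p 2.02e-21 in the same edgeR fit), or 7.87-fold. An exact permutation of 2 against 3 libraries gave p = 0.2 (two-sided) for each gene, the smallest that this design allows.

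Both transcripts encode long runs of charged residues, most of whose codons are rich in purines, so coding sequences were read for such stretches. The 30 coding bases with the most purines (A or G) were found for each gene in the hg19 sequence, and those of 5 transcripts that were higher in IgG, 3 that were lower (HMGN2, PGK1 and GAPDH) and NPM1, which passed in neither direction, are shown 5′ to 3′ with purines in capitals and pyrimidines in lower case.
PTMA: GAAGAAGAGGAAGAAGGtGGGGAGGAAGAG
PTMS: GAAGGAGAAGAAGGAGAAGGtGGAGGAGAA
ANP32B: AGGAGGAAGAAGGtGGGAAAGGtGAAAAGA
CHD4: AAGAGAAGAAAGAAGAAGAAGAGAAAAAAG
UPF3B: GAGAGAAGAAAAGAGAGAAGAAAGGAGGAG
HMGN2: AAGGGAGAtAAAGcAAAGGtGAAGGAcGAA
PGK1: AtGtGGAGGAAGAAGGGAAGGGAAAAGAtG
NPM1: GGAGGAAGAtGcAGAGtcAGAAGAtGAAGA
GAPDH: cAAGAAGGtGGtGAAGcAGGcGtcGGAGGG

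In hg19 these lie in coding exons at chr2:232576642-232576671 (PTMA, plus strand), chr12:6878774-6878803 (PTMS, plus), chr9:100777646-100777675 (ANP32B, plus), chr12:6687683-6687712 (CHD4, minus), chrX:118975187-118975216 (UPF3B, minus), chr1:26799989-26800018 (HMGN2, plus), chrX:77369614-77369643 (PGK1, plus), chr5:170819718-170819747 (NPM1, plus) and chr12:6646998-6647027 (GAPDH, plus). The windows of CHD4 and UPF3B were purine at all 30 positions, which 1.81% of the 13283 tested genes with a coding window reached. PTMA and PTMS had 29 purines, as many or more of which were found in 4.57% of genes, and ANP32B had 28 (9.44%). PGK1, with 27 (16.95%), and HMGN2, with 26 (29.5%), were lower in IgG all the same. So were SMARCA2, with 30 and a log2 difference of -1.64, and MRPL48, with 28 and -4.67, so a purine-rich stretch and retention did not go together in every gene. NPM1 had 25 and GAPDH 23, numbers reached by 46.4% and 82.2% of genes. Strong retention also occurred at low numbers, with 20 purines in NRTN (log2 difference 6.94), 22 in STK11 (6.18) and 23 in BRSK1 (6.54). The 5 higher transcripts shown, with 28 to 30, therefore do not stand for all retained ones.

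Across 13283 tested genes with a coding window, retention rose with this number from 22 purines on (Spearman rho over all of them 0.167, given as a description, since genes share libraries, length and base composition). Genes with 22 or 23 purines had a median log2 difference of -0.74, with 19.2% higher and 42.0% lower. At 26 or 27 purines the median was -0.04, and at 28 or 29 it was 0.75. The 241 genes with 30 purines had a median of 1.24, with 58.9% higher and 11.2% lower, the reverse of the background of 24.4% and 36.6%. Medians from each IgG library alone were 1.30 and 1.38 at 30 purines, so both libraries showed it. Genes with such windows also have longer coding sequences (median 2658 bases against 1128 at 22 or 23 purines). Within the shortest 20% of coding lengths the median was still -0.69 up to 25 purines and 0.26 at 28 to 30, and within the longest 20% 0.01 and 1.17. In the shortest 20%, though, 23.4% of the 107 genes with 28 to 30 purines were higher, near the background of 24.4%. Up to 25 purines 17.2% were higher there. The shares that were lower were 15.9% at 28 to 30 purines and 40.8% up to 25. The anti-ac4C pull-down is set against the same 3 input libraries and is given as a description, with a median over input of 1.73 at 30 purines and -0.31 at 22 or 23, and IP over IgG differed less, with medians of 0.51 and 0.27. In siTDP43 IgG the order was another, as medians fell from 0.05 at up to 21 purines to -0.87 at 24 or 25 and reached 0.43 at 30.

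**Figure D1:**
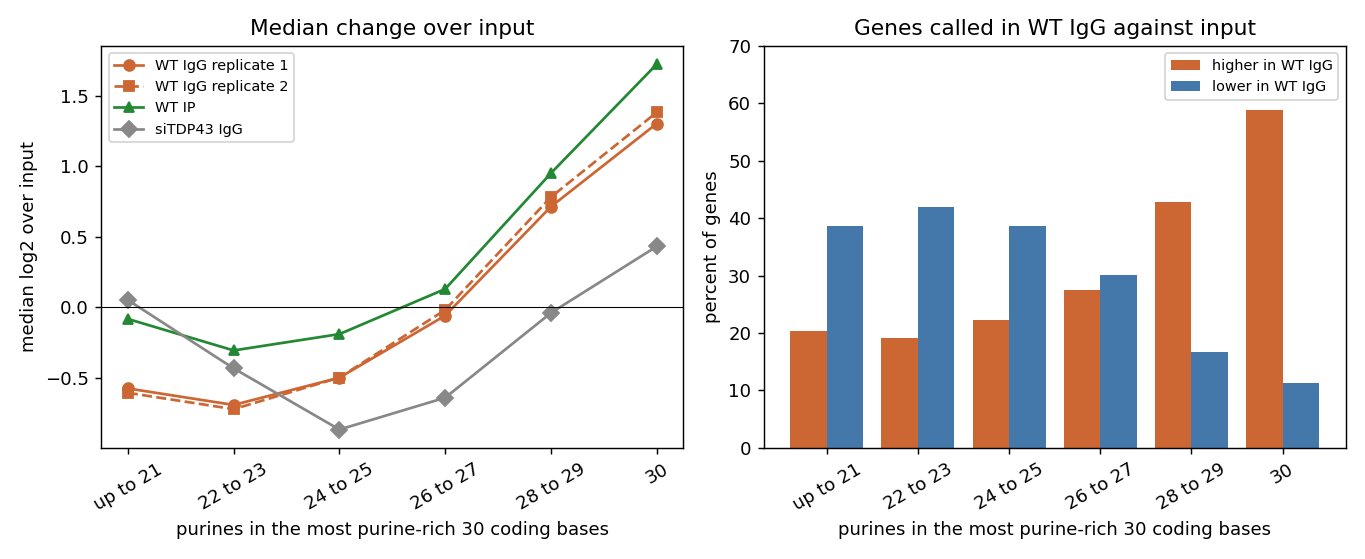
Left, the median log2 difference over input (y axis) of genes grouped by the number of purines in their most purine-rich 30 coding bases (x axis), for each WT IgG library, WT IP and siTDP43 IgG. Right, the percent of genes called higher and lower in WT IgG; at 30 purines 58.9% were higher and 11.2% lower, and at 22 or 23 these were 19.2% and 42.0%.

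Other sequence measures also moved with retention. The longest unbroken purine run anywhere in the exons went from a median log2 difference of -1.12 in the 20% of genes with the shortest runs to 0.65 in the 20% with the longest (median run 24 bases). This difference of 1.77 was 1.14 within the middle 20% of exonic length, where that of G content was 1.47 (0.88 over all lengths). Exonic length gave -0.88 in the shortest 20% of genes and 0.43 in the longest 20%, whose median length was 7005 bases. Transcripts poor in T, with a median of 18.1% T, had a median of 0.16, and those richest in T one of -0.71. GC content had a weaker relation over all lengths, from -0.60 to 0.07. Within the middle 20% of exonic length, however, its difference was 1.11. That was near the 1.14 of the longest purine run and above the 0.83 of purines in the coding window. In siTDP43 IgG the rank correlation with exonic length was -0.11, against 0.20 in WT (0.19 over the 12556 genes tested in both), and with the longest purine run 0.03 against 0.25.

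Transcripts of acidic histone chaperones and nucleolar phosphoproteins, which carry histones or organise the nucleolus, were mostly retained. Of 22 tested, 13 were higher and 1 lower, with a median log2 difference of 1.61 beside -0.39 over all genes. PTMS (parathymosin, the close relative of PTMA) went from 34.2, 32.9 and 32.7 CPM in input to 2156 and 2376 CPM in IgG, a log2 difference of 6.09 (SE 0.062, adjusted p 3.00e-27, edgeR). ANP32B, an acidic histone chaperone, went from 313, 353 and 344 to 3152 and 3397 CPM (log2 difference 3.28). Both genes had IgG libraries far above every input. TCOF1, the treacle protein of ribosomal DNA transcription, rose by 2.79 on the log2 scale, SET by 2.21, the FACT subunit SSRP1 by 2.20 and NCL (nucleolin) by 1.90. Of the others, 8 passed in neither direction and 1 was lower. The lower one was HMGN2, a nucleosome-binding protein, at 388, 431 and 390 CPM in input and 134 and 131 in IgG (log2 difference -1.60). NPM1 (nucleophosmin), at -0.84, was under the 2-fold limit. PTMA and the list were picked with PTMA's level known, so this count is no independent evidence of direction.

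**Figure D2:**
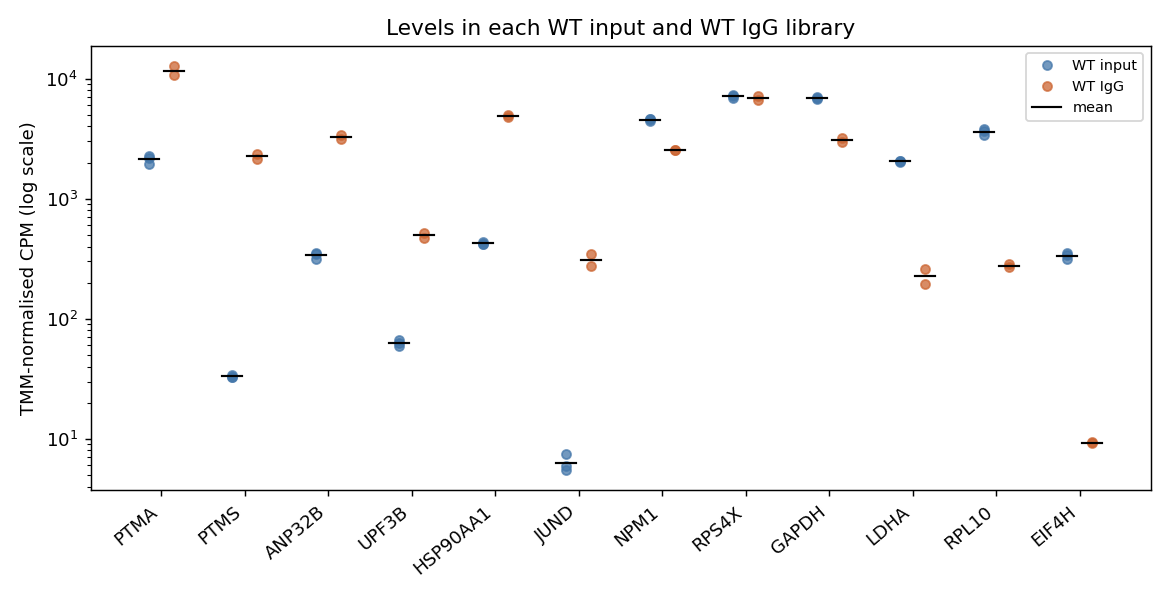
CPM after TMM normalization (y axis, log scale) of 12 genes in the 3 WT input and 2 WT IgG libraries, with a point for each library and a bar at the mean. PTMA, PTMS, ANP32B, UPF3B, HSP90AA1 and JUND lie above their inputs in both IgG libraries, RPS4X overlaps, and NPM1, GAPDH, LDHA, RPL10 and EIF4H lie below.

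Chromatin remodellers and histone methyltransferases, which move or mark nucleosomes and have long coding sequences, were higher for 24 of 30 genes tested and lower for 1, with a median of 1.95. The histone methyltransferase gene listed as MLL4 had 4.47, 4.91 and 4.69 CPM in input and 115 and 109 in IgG (log2 difference 4.57), SETD1A rose by 3.65 and CHD4, the ATPase of the NuRD complex, by 3.04. SMARCA2 was the member that was lower, at -1.64, but its IgG libraries stood apart, at 0.656 and 3.02 CPM against 5.06 to 6.40 in input. With the GC and length trend of each library removed, the median was 1.22. hnRNP genes, which package and splice pre-mRNA, were higher for 11 of 21 and lower for 1, with a median of 1.15. HNRNPM rose by 2.62 on the log2 scale and HNRNPU by 2.06, whereas HNRNPK had 1199, 1267 and 1283 CPM in input and 314 and 322 in IgG (-1.98).

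Among nonsense-mediated decay and exon junction factors, 8 of 16 were higher and 1 lower, with a median of 0.83. Besides UPF3B, the helicase UPF1 rose by 2.25 and the endonuclease SMG6 by 2.46, from a mean of 11.3 CPM in input to 58.1 and 66.9 in IgG. EIF4A3, the helicase at the core of the exon junction complex, was lower in both IgG libraries, at 65.6 and 58.0 CPM against 293 to 305 (log2 difference -2.28). Its partners MAGOH (-0.55) and RBM8A (0.08) stayed within the 2-fold limit. Members of one pathway thus lay on both sides. UPF3B and the list were picked with UPF3B's level known, so the count of 8 higher members is no independent evidence of direction.

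Some short structured RNAs were among the highest values in IgG, although they have no long poly(A) tail. Of 11 transcripts of RNA polymerase III that were counted, 7 were tested. Of these, 5 were higher and none lower, with a median log2 difference of 5.25, and the other 2 were at the floor in IgG. A transcript scarce in input passed the filter on low counts only where a pull-down held it. The share called higher is therefore no independent evidence of direction. RMRP, the RNA of RNase MRP, was at most 0.127 CPM in each input and at 8.08 and 13.3 CPM in IgG. RPPH1, the RNA of RNase P, had at most 0.395 CPM in input and 11.4 and 13.3 in IgG, and BCYRN1, a neuronal Alu-derived RNA, 0.254 to 0.364 and 18.7 and 15.6. The vault RNA VTRNA1-2 had 0.190 to 0.582 CPM in input against 14.2 and 13.0 in IgG, and VTRNA1-3 3.27 to 4.12 against 9.61 and 10.2. TERC, the template RNA of telomerase, rose by 4.20 on the log2 scale, and SNAR-H by 5.87, a value that is uncertain because SNAR copies are nearly identical. All these levels are low. In siTDP43 IgG these 5 polymerase III genes and VTRNA1-1 were higher, all 6 that were tested there, with a median of 5.84. The same limit of the filter holds there.

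Small nuclear RNAs by RefSeq class, a label not limited to the RNAs of the spliceosome, were higher for 8 of 9 tested and lower for none. Their summed level was 12.005 to 13.744 CPM in input and 466 to 565 in IgG. The median of the class in siTDP43, 8.20, equals the value of SNAR-H there, so the class appears to include SNAR-H. The uncertainty given above for SNAR-H then holds for this class too. Only these 9 of the 35 counted passed the filter, so the limit given for polymerase III transcripts holds here too. The other noncoding classes were mixed. Of 93 snoRNA genes tested, 14 were higher and 54 lower, but both IgG libraries were at the floor for 62, and the median was -0.85 when these were set to their bound against -5.58 as fitted. The 26 snoRNA genes with no group at the floor had a median of 1.26, so the direction of this class rests on genes at the floor. Antisense RNAs were higher for 13 and lower for 43 of 84, 35 of them at the floor in IgG (median -0.24 without floor genes), with the strand setting of the counting not stated. MALAT1, a nuclear noncoding RNA, was retained, with 118, 118 and 123 CPM in input and 473 and 527 in IgG (log2 difference 2.07). Genes for C2H2 zinc finger proteins, named ZNF, were higher for 90 and lower for 208 of 431 (48.3% against 36.6% of all genes), with 109 at the floor in IgG and a median of -0.08 without floor genes. LINC RNAs were higher for 6 and lower for 12 of 35 (34.3%).

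Metabolic and housekeeping genes differed by group. Glycolytic enzymes were lower for 11 of 17 and higher for 1, with a median of -1.16. GAPDH, the common reference transcript of glycolysis, had 6834, 6991 and 6875 CPM in input and 3194 and 2975 in IgG, a log2 difference of -1.16 (SE 0.058, adjusted p 4.41e-15, edgeR). LDHA, which makes lactate, fell from 2060, 2025 and 2048 CPM to 258 and 196, and PGAM1 from 387, 388 and 405 to 14.7 and 10.9. HK2, the hexokinase of the first step, was the 1 member that was higher, at 1.42. Lysosomal genes were lower for 11 of 24 and higher for 1 (median -0.96), and interferon-induced genes for 13 and 1 of 24 (-1.72). Aminoacyl-tRNA synthetases were lower for 14 of 35 and nuclear-encoded subunits of oxidative phosphorylation for 28 of 76, shares near the background of 36.6%. Sterol and fatty acid synthesis genes were higher for 5 and lower for 5 of 23, with a median of 0.12. Proteasome subunits were lower for 16 and higher for 4 of 36, with a median of -0.88 that was -0.16 without the GC and length trend. PSMB7, a catalytic core subunit, had 309, 310 and 327 CPM in input and 4.59 and 6.74 in IgG.

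Abundant translation genes split by member. Cytosolic ribosomal proteins were higher for 9 and lower for 18 of 77, and their summed level hardly moved, at 192873 to 203656 CPM in input and 188589 to 197176 in IgG. RPLP2, an acidic protein of the ribosomal stalk, rose by 2.17, from 1720, 1812 and 1755 CPM to 7610 and 8228. RPL10, which joins the large subunit late, fell from 3419, 3799 and 3674 CPM to 270 and 284 (log2 difference -3.71), and RPS4X overlapped between groups (6907 to 7287 and 6666 to 7130 CPM). The list's median of -0.16 became 0.32 with the GC and length trend removed, so it has no stable direction. The initiation factor EIF5B rose by 3.84 and EIF4H, a helper of the eIF4A helicase, fell from 313 to 351 CPM to 9.40 and 9.19 (-5.17). The chaperones also parted, with HSP90AA1 at 417 to 435 CPM in input and 4812 and 4944 in IgG (3.52) and HSPA8 at 934 to 983 and 191 and 182 (-2.37).

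**Figure D3:**
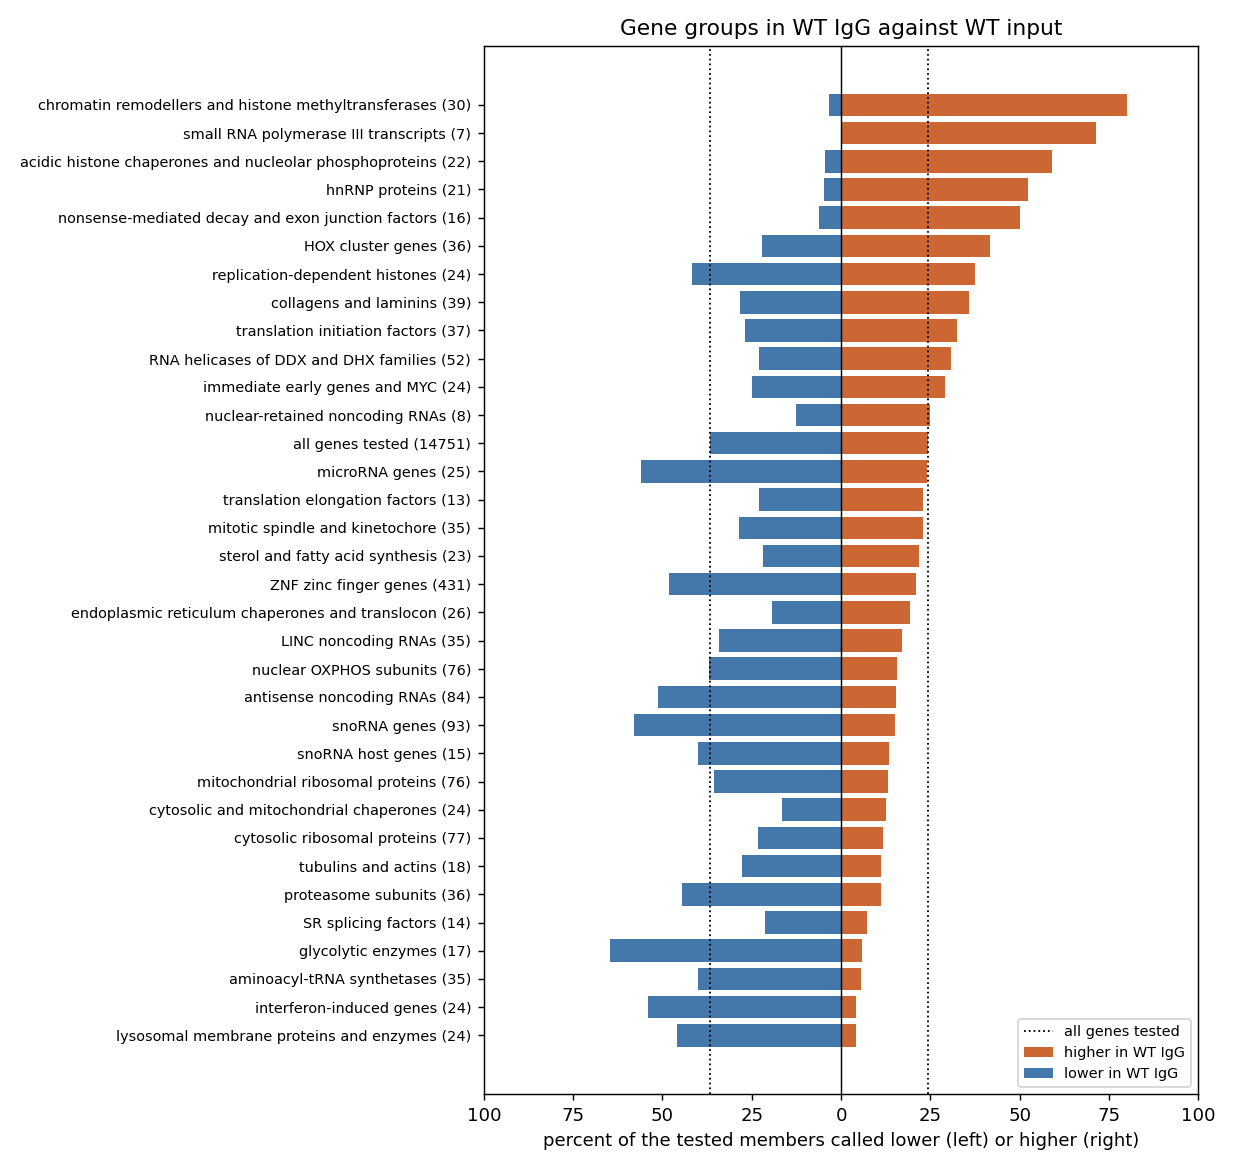
Percent of the tested members of each gene group (number tested in brackets) called higher (right) or lower (left) in WT IgG against WT input, with dotted lines at 24.4% and 36.6%, the shares over all genes tested. Chromatin remodellers (24 of 30 higher) stand at the top and lysosomal genes (1 of 24 higher) at the bottom.

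The genes with the largest differences were mostly of low level on the side where they were low. Those named here are examples and not the most extreme. NRTN, a neurotrophic ligand, had 0.443 to 0.678 CPM in input and 68.2 and 74.0 in IgG (log2 difference 6.94), BRSK1, a kinase, 0.678 to 0.887 and 67.3 and 76.0 (6.54), and STK11, the tumour suppressor kinase LKB1, 2.88 to 5.37 and 262 and 322 (6.18). JUND, an AP-1 subunit encoded by a gene with no intron, rose by 5.64. At the other end, LSM12 had 77.9, 87.3 and 84.2 CPM in input and 0.109 and 0.698 in IgG (-7.70), and CAPN1, a calcium-dependent protease, 47.6 to 49.0 and 0.437 and 0 (-7.71). Retention was spread over abundance unevenly, with 7.66% higher and 37.2% lower among the 10% of genes most abundant in input. In the 1475 genes just below the middle of the range these were 35.2% and 32.9%. Loss was not most frequent at high abundance. Of 1475 genes with a median input of 1.11 CPM, 23.1% were higher and 57.3% lower. At a median of 2.86 CPM these were 30.7% and 49.8%, and in the 10% least abundant 27.0% and 23.4%. Genes were sorted by input level, over which the difference is taken. This by itself favours lower calls among abundant genes.

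Some well-expressed transcripts were missing altogether. From the input, 7830 genes should have had at least 100 counts in a library of IgG depth, and 186 of them had at most 3 counts in each IgG library. Of these, 130 were the same genes, 69.9% of either library's losses. In WT IP thinned to the same depth 6 to 10 genes per library were at the floor, and in siTDP43 IgG, out of 4857 genes, 151 to 208. HARS2, the mitochondrial histidyl-tRNA synthetase, had 1218, 1437 and 1403 counts in input and 0 in both IgG libraries. At the floor of 3 counts this gives a nominal bound of 127-fold lower. MAT2A, which makes S-adenosylmethionine, had 2065 to 2823 counts in input and 2 in each IgG library (nominal bound 234-fold lower). C20orf3 had 3821 to 4850 and 2 (nominal bound 417-fold). In WT IP, MAT2A had 376 to 421 counts and C20orf3 1127 to 1519. The siTDP43 IgG libraries, made without the ac4C antibody, also held C20orf3, at 317 to 360 counts. They had 40 to 58 counts of HARS2 and 13 to 15 of MAT2A. What kept these transcripts out of WT IgG was not tested. At 20 to 50 expected counts, 24.2% of genes were at the floor in both IgG libraries.

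**Figure D4:**
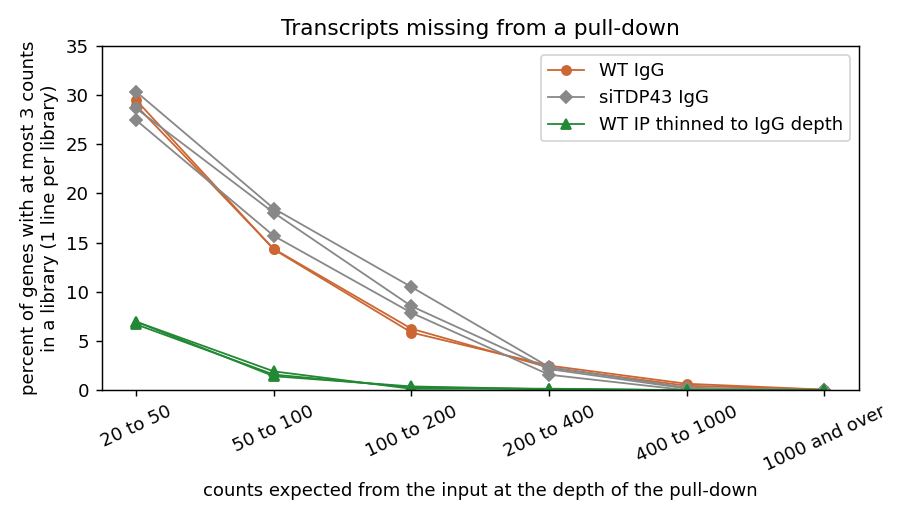
Percent of genes with at most 3 counts in a library (y axis) by the counts expected from their input level at the depth of the pull-down (x axis), with a line for each WT IgG, siTDP43 IgG and thinned WT IP library. Both IgG groups lie above WT IP below 400 expected counts, with 528 and 538 of 1824 genes at the floor in WT IgG and 122 to 127 in WT IP at 20 to 50 expected counts.

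Set against the ac4C antibody, which shares these IgG libraries and is therefore given as a description, the genes that were lower in IgG had a median of 2.31 for IP over IgG, and 3434 of the 5400 passed as higher there (35.2% of all genes did). Of the 3594 genes higher in IgG, 373 were higher and 1374 lower in IP over IgG (17.8% of all genes were lower), though their median over input in IP was 1.46. PTMA lay between input and IgG in IP, at 4764, 5468 and 5781 CPM, whereas UPF3B had 2117 to 2465 CPM in IP, above both.

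The retained set differed between WT and siTDP43 cells, which are the same line. Knockdown, siRNA transfection, library set and depth go together here and cannot be told apart. The siTDP43 pull-downs share no library with WT and were shallower, with 3013989 to 3436811 counts in IgG. TARDBP was at 165 to 174 CPM in WT input and 81.6 to 88.4 in siTDP43 input, each normalized within its own fit. Among 12746 genes tested in siTDP43, IgG exceeded input for 24.7% and fell short of it for 41.0%. Over 12556 genes tested in both, 1424 were higher in WT and in siTDP43. These were 45.9% of the WT and 46.0% of the siTDP43 calls, with 24.6% of the 12556 genes higher in siTDP43. Another 2617 were lower in both (58.1% and 50.9% of the calls, with 41.0% of the genes lower in siTDP43). Opposite calls were made for 678 and 609 genes. In the test of the change itself (siTDP43 minus WT of IgG over input, adjusted p under 0.05 by edgeR), 4098 of 15165 genes were higher (27.0%) and 5674 lower (37.4%), with a median of -0.48 that was -0.75 with total count scaling and -0.33 with DESeq2 size factors.

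Among the retained groups, acidic histone chaperones shifted most evenly, since 19 of 22 were lower in the change and 2 higher, and their median in siTDP43 was -0.03. The median change of this list was -1.01, or -1.34 with total count scaling and -0.85 with DESeq2 size factors, below that of all genes under each. PTMA was at 1421, 1497 and 1515 CPM in siTDP43 input and 3236 to 3360 in IgG, a log2 difference of 1.16 in the siTDP43 fit. The change comes from the fit of all 17 libraries, with a scaling of its own, so it is not the exact difference of the values from the separate fits; for PTMA it was -1.497 (SE 0.11, adjusted p 3.99e-15, edgeR). UPF3B was at 28.98 to 31.3 CPM in siTDP43 input and 39.6 to 45.2 in IgG, a log2 difference of 0.48, with a change of -2.697 in the joint fit. PTMA, UPF3B and the list of acidic chaperones were picked with high WT IgG levels known. Those levels enter the change with a minus sign, which favours a lower change. The lower changes of these genes and of the list are therefore no independent evidence of direction. PTMS had a log2 difference of 5.84 in siTDP43 and a change of -0.45 (adjusted p 0.000543, edgeR), close to the median change of all genes. Cytosolic ribosomal proteins went the other way, with 74 of 77 higher in the change and a median of 2.14 in siTDP43 against -0.16 in WT (median change 1.67 to 2.16 over the same scalings), and nuclear-encoded subunits of oxidative phosphorylation were higher for 58 and lower for 7 of 76. In siTDP43 IgG the 100 most abundant genes held 39.6 to 39.8% of all counts, against 27.6 and 28.6% in WT IgG, 27.1 to 27.9% in WT input and 22.6 to 22.8% in siTDP43 input, and the part of this concentration in the shifts was not tested.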

How the data were processed

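Poly(A) RNA was sequenced in 17 libraries, grouped by their labels. The authors trimmed reads with Trim Galore 0.6.7, aligned them to hg19 with STAR 2.7.10a and deposited raw counts of uniquely mapped reads per gene from featureCounts 2.0.2 (versions from the submitters' processing notes). Strand setting, annotation release and pair handling are not given in the sources used here; 81.3 to 95.6% of counts of 1 to 20 in WT input and IgG were even. A read pair may thus add 2 counts, so a floor of 3 counts can stand for 1 pair. With no molecular identifiers either, floors do not cover all counting error, and bounds taken from them are nominal.

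Counts were tested with edgeR 4.0.16 in R 4.3.3, with TMM and filterByExpr at a minimum count of 10. The test was the quasi-likelihood F test, with Benjamini-Hochberg adjustment over all genes tested. Fits took 8 WT, 9 siTDP43 or, for the change between WT and siTDP43, all 17 libraries. A group with at most 3 counts in every library was at the floor, and folds against it are bounds from 3 counts per library. In simulated WT IgG and input counts (14751 genes), 200 genes were changed by 2 on the log2 scale and 97.5% of them were recovered. The simulation gave every gene the same fixed spread, changed only genes above a minimum level and modelled no loss of transcripts. It therefore gives no recovery rate for the real libraries. Alternatives were DESeq2 1.42.0, limma 3.58.1 on log2(FPKM + 1) computed here, other scalings, filters and sets of libraries, thinned or halved counts, removal of a GC and length trend, the replicate block and each library left out. Same-numbered input and IgG libraries did not deviate together (r of 0.0066 and -9.4e-05). With 2 IgG libraries their deviations are mirror images, so these values cannot exclude pairing. The main fit assumed none, and the replicate block is among the alternatives. Of 194402 introns placed on GRCh37 with the table's coordinates, 97.99% began with GT; coding windows were read from it for 18374 genes.

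The members, the gene lists and the rule for named genes were chosen with earlier results of these data known. The rule took PTMA and UPF3B, the largest differences (mean of at least 100 counts, no exon overlap, no group at the floor), the largest shares of counts and the extremes of each list. It also took the largest changes between WT and siTDP43 among genes that passed the test of the change. NCL, SET, SSRP1, TCOF1, HNRNPU, CHD4, UPF1, MAGOH, RBM8A, PGK1, TERC, MAT2A, C20orf3 and most of the small RNAs were named after their values were seen. The purine measures and the subsets by input level, exon overlap and floor were also added after seeing the data. Some genes and sequences are not reported here.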

Additional observations from a re-analysis of the deposited data

Results flagged for a closer look

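The change of IgG over input between WT and siTDP43 was tested for the genes named by rule. Of those reported here, with no group at the floor, 13 were called in opposite directions in WT and siTDP43. They also passed the test of the difference (edgeR, adjusted p under 0.05). Some were named because their change was extreme among genes that passed this same test. For the others, opposite calls already imply a difference. Passing the test is therefore no independent evidence for these genes. From lower in WT to higher in siTDP43 IgG, the log2 change was 8.63 for CLCN5, a chloride and proton exchanger of endosomes, 8.34 for HEG1, 8.29 for C9orf89, 5.03 for LINC00116, 5.004 for SMARCA2, 3.36 for LINC00493, 2.77 for EEF1B2, a subunit of the elongation factor that recharges EEF1A, and 2.68 for HIST1H2BK. HEG1 had 0.437 and 0.465 CPM in WT IgG and 54.5 to 64.9 in siTDP43 IgG, against 6.44 to 7.06 and 1.83 to 2.64 in the inputs. From higher in WT to lower, it was -7.03 for FURIN, a proprotein protease, -7.03 for AEBP2, a PRC2 partner, -6.89 for FZD5, a Wnt receptor, -6.62 for CASC5, a kinetochore protein, and -5.42 for COL25A1. FURIN had 157 and 133 CPM in WT IgG against 7.92 to 10.3 in input, and 0, 0 and 2.76 CPM in siTDP43 IgG against 7.10 to 7.34. FZD5 (0, 0 and 2.07 CPM), COL25A1 (0, 0 and 2.76) and CASC5 (1.43, 0 and 0) were likewise at 0 in all but 1 siTDP43 IgG library, and AEBP2 had 0.716, 0 and 1.38 CPM, so these changes rest on few reads. WT IgG held 4 counts in each library for HEG1, 4 and 2 for CLCN5, 0 and 6 for C9orf89, and 6 and 26 for SMARCA2.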

How the results depend on the processing

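Across the alternatives, the counts of 3594 higher and 5400 lower genes ranged from 2703 (limma on log2(FPKM + 1)) to 3733 (no filter) and from 3379 (limma) to 5578 (no filter), apart from the subsets. Without genes in which a group was at the floor, 3476 were higher and 3436 lower; the lower counts with limma and without floor genes moved by over 1.5 times, the latter because this leaves out 1964 of the lower but 118 of the higher genes. With DESeq2 the counts were 3553 and 5454, and with the replicate block 3567 and 5255, so the block changed no call of PTMA or UPF3B and moved no count by over 1.5 times. Leaving out each library in turn gave 3540 to 3590 higher and 5110 to 5300 lower; without an IgG library the lone one is assumed to vary like the other groups. PTMA was between 2.32 (without WT IgG replicate 2) and 3.08 (GC and length trend removed) and UPF3B between 2.90 and 3.64. The change between WT and siTDP43 gave 3507 higher and 6401 lower with total count scaling, and 4695 and 5408 with DESeq2. With each library left out it gave 3947 to 4046 and 5429 to 5627, against 4098 and 5674. A fold above 2 left 3233 and 4699.

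Near-zero values turned sign: RPS4X (-0.05) was 0.45 with the GC and length trend removed, 0.0309 with thinned input and 0.0238 with a mean of at least 50 counts, RPL3 (-0.25) was 0.15 with the trend removed, and TUG1 (0.06) was -0.36 with the trend removed, -0.007286 with the replicate block and -0.10 and 0.19 without WT IgG replicates 1 and 2. The median of collagens and laminins turned from 0.65 to -0.57 with the trend removed, and that of histones from -0.59 to 0.08 to 0.64 under 6 settings.

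The difference in median log2 between the top and bottom 20% of genes kept its sign. For exonic length (1.31) it was 1.22 with an input mean of at least 100 counts, 1.52 within the middle 20% of GC content and 1.21 with WT IgG replicate 1 alone. For GC content (0.67) it was 1.11 within the middle 20% of exonic length and 0.70 and 0.74 with each IgG library alone. For T content (-0.88) it was -1.21 within that length range and -0.97 with replicate 2 alone. For purine content (0.57) it was 0.49 at the higher input level, 0.70 within the length range and 0.52 with replicate 1 alone. For the longest purine run (1.77) these were 1.63, 1.14 and 1.64. For purines in the coding window (1.09) it was 1.16 at the higher input level, 0.83 within the length range and 1.15 with replicate 2 alone. The causes were not tested. At IgG depth, losses of genes with few expected counts are not detectable as differences in level.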
